A study of Mus musculus with 16 samples.

Results

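The 9 genes described here encode the enzymes and carriers that bring long-chain fatty acids into mitochondria and oxidise them: Cpt1a, Cpt2, Slc25a20, Acadvl, Acadl, Acadm, Hadha, Hadhb and Etfdh. They were picked by name for this role, with earlier results of these data known but with no measured value in the rule, and all 9 were found among the 15571 genes of the count table and passed the filter on low counts. The cells were mouse Th17 cells, the helper T cells that produce IL-17, grown from magnetically sorted naive CD4+ T cells of spleen and lymph node for 3 days on plate-bound anti-CD3 (5 μg/mL) with anti-CD28 (1 μg/mL), IL-6 (30 ng/mL), TGFβ (2 ng/mL) and anti-IFNγ (5 μg/mL). KO cells came from PDHfl/fl CD4 Cre+ mice and WT cells from PDHfl/fl mice, so every group carried floxed PDH alleles and the genotypes differed by Cre. PDH, pyruvate dehydrogenase, makes acetyl-CoA from pyruvate, and CD4-Cre acts in T cells from the thymus onward. Sample titles spell the gene PHD where the protocols spell it PDH. The groups were KO acetate (10 mM sodium acetate during differentiation), KO untreated, WT acetate and WT untreated, with 4 libraries each. There was no group with Cre and unfloxed alleles and none with another sodium salt. Whether libraries of a group were separate mice or cultures is not stated, so the p-values measure a spread that may be technical.

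In fatty acid oxidation, a long-chain fatty acid is first bound to CoA and then passed to carnitine by CPT1 on the outer mitochondrial membrane, the step that malonyl-CoA blocks. The carrier encoded by Slc25a20 brings the acylcarnitine inside, and CPT2 returns the acyl group to CoA. Acyl-CoA dehydrogenases of different chain-length preference then open each round of beta-oxidation, the trifunctional protein of HADHA and HADHB closes it for long chains, and each round releases acetyl-CoA. Electrons from the dehydrogenases pass over electron transfer flavoprotein (Etfa, Etfb) and its oxidoreductase ETFDH to the respiratory chain. Th17 cells are known for using glucose and making fatty acids more than burning them, and memory and regulatory T cells for fatty acid oxidation.

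Library totals lay between 24571177 and 33723470 estimated counts. A gene without a name in the reference took 0.267% to 9.14% of them and exceeded 3% in KO acetate 2, KO untreated 1, KO untreated 2 and WT untreated 1, called the high-share libraries here. The labels do not say which part of PDH was deleted. Pdha1, for the E1 alpha subunit, had 248 ± 13.1 CPM in KO acetate, 225 ± 11.5 in KO untreated, 259 ± 10.8 in WT acetate and 247 ± 12.6 in WT untreated libraries (SD, n = 4 each). Its KO over WT log2 fold change in untreated cells was −0.14 (edgeR adjusted p = 0.0761). Of the other genes of the PDH complex, Dlat was 1.14-fold lower in KO (edgeR adjusted p = 0.0326) and Pdhx 1.25-fold lower (0.00256). Pdhb and Dld had log2 fold changes of 0.07 each (edgeR adjusted p = 0.275 and 0.449). In that comparison 18.6% of all genes tested were lower at an adjusted p under 0.05. Counts over whole genes would miss a deletion of single exons and do not check the genotype labels. CPM is a gene's estimated count divided by the TMM-scaled library total and multiplied by 1000000. A gene is said to rise or fall, or to be called, where edgeR's quasi-likelihood test gave an adjusted p under 0.05 over all 14985 genes tested. Markers of T cells and Th17 cells were present: Cd4 averaged 404 CPM in KO acetate, 384 in KO untreated, 419 in WT acetate and 458 in WT untreated libraries, and Il17a, the cytokine that names these cells, averaged 868, 138, 485 and 135 CPM in the same 4 groups. The 4 B cell markers together reached at most 4.56 CPM in a library, with Ms4a1 and Pax5 at 0 in some, and the 3 of 6 myeloid markers in the table at most 3.84 CPM.

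Without acetate, KO cells had lower transcript levels of the medium- and long-chain dehydrogenases Acadm and Acadl, of Etfdh and of the carnitine carrier Slc25a20, and a higher level of Hadhb, of which the calls of Slc25a20 and Hadhb were each lost without any of several single libraries. With acetate in KO cells, Acadm, Acadl, Etfdh, Acadvl and Cpt1a rose, while Hadha and Hadhb fell. Of these, Acadl was not called without KO acetate 2, Cpt1a without the high-share libraries, and Hadha with library totals as the only scaling. In WT cells Cpt1a, Acadvl and Acadm rose with acetate, the last again with a call that single libraries decided. Between the genotypes under acetate none of the 9 genes was called. The changes were small, at most 1.61-fold, which was the rise of Acadm with acetate in KO cells.

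**Figure D1:**
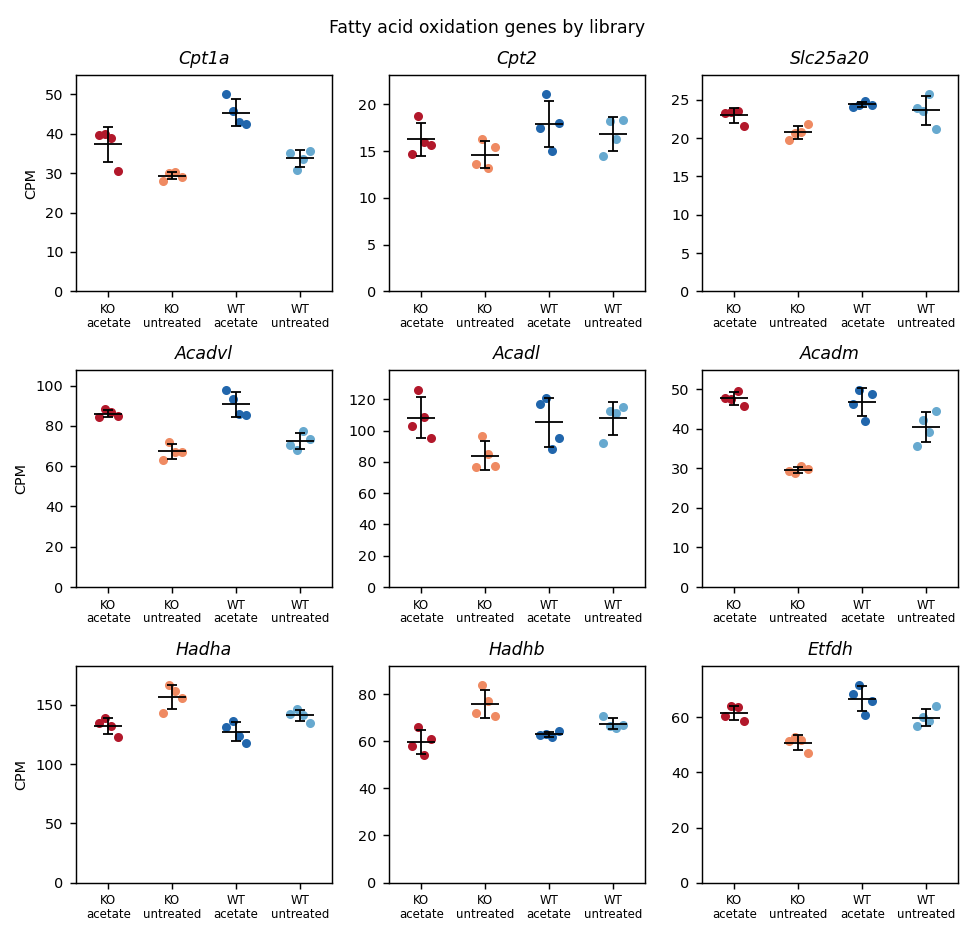
Level of each of the 9 genes in CPM (vertical axes, from 0) in every library (points) of the 4 groups, with the mean (bar) and SD (whiskers) of the 4 libraries. Acadm lies between 28.8 and 30.5 CPM in KO untreated libraries, below all 12 others, whereas Hadha and Hadhb have their highest group means there.

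Per kilobase of the longest protein-coding transcript in GENCODE M21, the levels in WT untreated libraries ran from Acadl, at 56.3 ± 5.53 CPM per kb, to Cpt2, at 7.09 ± 0.779 CPM per kb (SD, n = 4). Between them came Hadha (35.1), Acadvl (33.4), Hadhb (33.0), Etfdh (25.2), Acadm (19.7), Slc25a20 (13.2) and Cpt1a (7.82 CPM per kb). The libraries of Hadha, Acadvl and Hadhb overlapped on this scale, as did those of Cpt1a and Cpt2, and no other neighbours in the order did. Acadl was also highest in the other 3 groups, and Slc25a20, Cpt1a and Cpt2 were the 3 lowest in all 4. Which transcripts the cells used was not examined, and the order depends on the lengths taken. These were 4017 bases for Hadha and 4317 for Cpt1a, against 2048 for Hadhb and 2372 for Cpt2.

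Cpt1a encodes the carnitine palmitoyltransferase that commits fatty acids to oxidation and lies on the plus strand at chr19:3322326-3385735 (GRCm38.p6). Its levels were 39.8, 40.0, 38.8 and 30.6 CPM in KO acetate libraries, against 28.1, 30.0, 30.3 and 29.1 CPM in KO untreated libraries. In WT cells they were 50.0, 45.6, 43.0 and 42.5 CPM with acetate, against 35.0, 30.9, 33.5 and 35.6 CPM untreated. Acetate libraries thus stood above untreated ones in both genotypes without overlap, although KO acetate 4 stood nearer to the KO untreated libraries than to its own group. Cpt1a rose 1.27-fold with acetate in KO cells (log2 fold change 0.34 with an SE of 0.0813, edgeR adjusted p = 0.00205) and 1.34-fold in WT cells (0.42 with an SE of 0.0804, adjusted p = 0.00155). The acetate effects of the genotypes differed by −0.08 (95% interval −0.32 to 0.16, edgeR adjusted p = 0.703). Without the high-share libraries the value in KO cells was 0.28 with an edgeR adjusted p of 0.0564.

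All KO libraries of Cpt1a lay below all WT libraries of the same treatment, and neither difference was called. The log2 fold change of KO over WT was −0.20 in untreated cells (95% interval −0.37 to −0.03, edgeR adjusted p = 0.0617) and −0.28 in acetate-treated cells (−0.45 to −0.11, adjusted p = 0.0834). DESeq2 called both, with an adjusted p of 0.0494 untreated and 0.0242 with acetate. In edgeR the untreated difference passed with library totals as the only scaling, in a fit of the groups compared alone and without WT untreated 2, and the difference under acetate passed without KO acetate 2.

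The bases before the Cpt1a start are shown because the gene is a textbook target of lipid-sensing nuclear receptors. In RefSeq's table for GRCm38.p6 this start lies inside the gene's span, and the stretch at chr19:3323051-3323284 (plus strand) falls, by GENCODE M21, in an intron of a transcript that begins further upstream. Capitals mark TGACCT, the reverse complement of AGGTCA, the letters such receptors recognise.
Cpt1a: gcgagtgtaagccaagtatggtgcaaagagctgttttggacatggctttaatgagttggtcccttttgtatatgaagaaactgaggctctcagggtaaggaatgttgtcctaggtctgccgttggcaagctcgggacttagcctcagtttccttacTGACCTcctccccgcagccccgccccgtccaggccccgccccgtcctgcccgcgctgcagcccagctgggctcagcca
The 6 letters AGGTCA stood, on either strand, in the 250 bases before the start of 3 of the 9 genes (Cpt1a, Acadvl and Acadm) and in 14.0% of 32851 promoter windows of that length. A repeat of AGGNCA with 1 base between its copies, the kind that PPAR receptors bind, stood in none of the 9 windows and in 0.338% of all.

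Slc25a20, the carnitine-acylcarnitine carrier of the inner membrane (chr9:108662136-108684642, plus strand), had 21.5 to 23.6 CPM in KO acetate, 19.7 to 21.8 in KO untreated, 24.1 to 24.9 in WT acetate and 21.2 to 25.7 CPM in WT untreated libraries. It was 1.14-fold lower in KO untreated than in WT untreated cells (log2 fold change −0.19, SE 0.0655, edgeR adjusted p = 0.033), with overlapping libraries. The call was lost when any of KO untreated 1, 2 or 3 or WT untreated 1, 2 or 3 was left out (adjusted p up to 0.124), in a fit of those groups alone (0.0678) and without the high-share libraries (0.272). With acetate it changed by 0.15 in KO cells (adjusted p = 0.0817) and 0.05 in WT cells (0.701). Cpt2, the inner carnitine palmitoyltransferase (chr4:107903982-107923589, minus strand) had 14.7 to 18.7 CPM in KO acetate, 13.2 to 16.3 in KO untreated, 14.98 to 21.1 in WT acetate and 14.4 to 18.3 CPM in WT untreated libraries. Its groups overlapped in every comparison and none was called, with log2 differences between −0.20 (KO over WT untreated, 95% interval −0.43 to 0.03) and 0.15 (acetate in KO cells, −0.08 to 0.38).

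Acadm encodes the medium-chain acyl-CoA dehydrogenase (chr3:153922353-153944643, minus strand) and had the largest fold changes of the 9 genes between KO and WT untreated cells and with acetate in KO cells. Its levels were 47.8, 47.5, 49.6 and 45.7 CPM in KO acetate libraries, against 29.3, 28.8, 30.5 and 29.7 CPM in KO untreated libraries. In WT cells they were 46.2, 49.8, 42.0 and 48.8 CPM with acetate, against 35.6, 42.2, 39.2 and 44.4 CPM untreated. KO untreated libraries were below every other library. KO acetate libraries lay above all WT untreated ones and within the range of WT acetate. In untreated cells Acadm was 1.36-fold lower in KO than in WT (log2 fold change −0.45 with an SE of 0.0697, edgeR adjusted p = 7.69e-05). With acetate it rose 1.61-fold in KO cells (0.69, SE 0.0698, adjusted p = 3.26e-07) and 1.16-fold in WT cells (0.21, SE 0.0688, adjusted p = 0.0449). The difference between these acetate effects was 0.48 (SE 0.0979, adjusted p = 0.00423). Under acetate KO and WT differed by 0.03 (95% interval −0.11 to 0.17, adjusted p = 0.866).

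Acadm was called between KO and WT untreated cells, with acetate in KO cells and for the difference between the acetate effects. These calls kept an adjusted p under 0.05 whichever library was left out, and without the high-share libraries. The call between KO acetate and WT untreated cells did not, as given further on. The rise in WT cells lost its call without WT acetate 1, 2 or 4 or WT untreated 1, 2 or 3 (adjusted p up to 0.155), with library totals as the only scaling (0.0704), in a fit of those groups alone (0.0888) and without the high-share libraries (0.14, adjusted p = 0.22).

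The bases before the Acadm start are shown for 2 motifs found in them. TGACCTT is the reverse complement of AAGGTCA, the letters bound by the oestrogen-related receptors, of which Esrra is described further on. GCATGCGC is the core of the sites of NRF1, a regulator of mitochondrial genes. The same core stood before the start of Etfdh, another gene lower in KO untreated cells and raised by acetate there, of which 30 bases are given. Coordinates are chr3:153944644-153944893 and chr3:79628876-79628905 (RefSeq, GRCm38.p6, minus strand in both), with the motifs in capitals. The Etfdh stretch overlaps an exon of a retained-intron transcript of that gene.
Acadm: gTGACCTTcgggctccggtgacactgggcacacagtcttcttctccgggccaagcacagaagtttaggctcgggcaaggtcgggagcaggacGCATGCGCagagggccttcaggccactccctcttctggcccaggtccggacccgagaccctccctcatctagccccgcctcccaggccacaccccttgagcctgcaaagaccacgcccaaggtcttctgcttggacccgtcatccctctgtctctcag
Etfdh: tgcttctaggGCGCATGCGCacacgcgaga
In the Etfdh stretch the core occurs on both strands, the matches overlapping within the capitals. GCATGCGC stood in the windows of Acadm and Etfdh and in 2.26% of all 32851 windows, and AAGGTCA, which contains AGGTCA, in that of Acadm and in 4.08% of all. Of other motifs searched, CCGGAAGT, the letters of ETS factors, stood before Cpt2 and Slc25a20 and in 2.88% of windows, and CCAAT, the NF-Y box, before Cpt1a and Etfdh and in 33.8%. These motifs were chosen after the sequences were read, and a match is no evidence of binding.

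Acadvl, for the very-long-chain dehydrogenase (chr11:70010183-70015428, minus strand), had 84.6, 88.4, 86.8 and 84.8 CPM in KO acetate libraries, against 63.2, 71.8, 67.2 and 67.01 CPM in KO untreated libraries. In WT cells it had 97.9, 93.4, 86.1 and 85.4 CPM with acetate, against 70.7, 68.1, 77.3 and 73.3 CPM untreated. Acetate libraries were above untreated ones in both genotypes without overlap, and those of KO acetate were also above all WT untreated libraries. Acadvl rose 1.28-fold with acetate in KO cells (log2 fold change 0.36, SE 0.0592, adjusted p in edgeR = 8.27e-05) and 1.25-fold in WT cells (0.33, SE 0.0589, adjusted p = 0.00107). The acetate effects differed by 0.03 (95% interval −0.14 to 0.20, adjusted p = 0.858). KO over WT gave −0.10 in untreated cells (−0.23 to 0.02, adjusted p = 0.178).

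For Acadl, the long-chain dehydrogenase (chr1:66830839-66863309, minus strand), the levels were 103, 126, 109 and 95.2 CPM in KO acetate libraries, against 76.7, 96.4, 85.3 and 77.8 CPM in KO untreated libraries. In WT cells they were 117, 121, 88.3 and 95.5 CPM with acetate, against 92.1, 112, 112 and 115 CPM untreated. Every pair of groups overlapped. Acadl was 1.28-fold lower in KO untreated than in WT untreated cells (log2 fold change −0.36, SE 0.110, adjusted p in edgeR = 0.0167) and rose 1.29-fold with acetate in KO cells (0.36, SE 0.110, adjusted p = 0.0125; 0.28 and 0.0515 without KO acetate 2). In WT cells the change with acetate was −0.03 (95% interval −0.27 to 0.20, adjusted p = 0.885). The acetate effects of the genotypes differed by 0.40 (0.07 to 0.73), which was not called (adjusted p = 0.105).

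**Figure D2:**
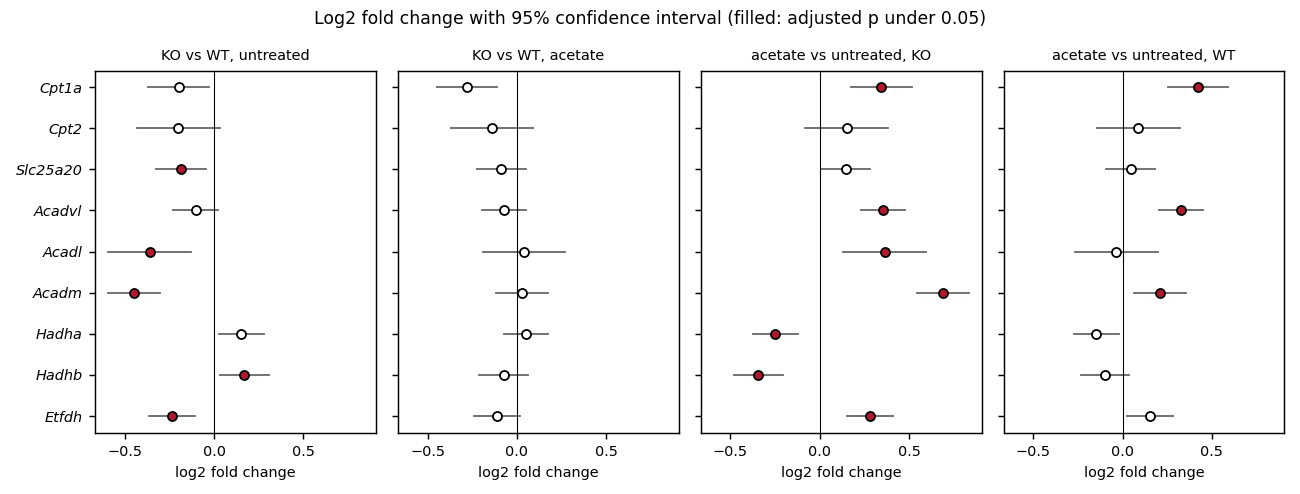
Log2 fold change (horizontal axes) of the 9 genes in 4 comparisons, with 95% confidence intervals as lines and filled points where the edgeR adjusted p was under 0.05. Points of Hadha and Hadhb lie on the other side of 0 from those of Acadm and Etfdh in the untreated genotype comparison and in both acetate comparisons.

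Hadha and Hadhb encode the alpha and beta subunits of the trifunctional protein. Hadha had 134, 139, 132 and 123 CPM in KO acetate libraries, against 143, 167, 162 and 156 CPM in KO untreated libraries. In WT cells it had 131, 136, 124 and 118 CPM with acetate, against 142, 146, 142 and 134 CPM untreated. All KO acetate libraries were below all KO untreated ones. Hadha fell 1.19-fold with acetate in KO cells (log2 fold change −0.25, SE 0.0599, edgeR adjusted p = 0.0023). Its other differences were not called: −0.15 with acetate in WT cells (95% interval −0.27 to −0.02, adjusted p = 0.106) and 0.15 for KO over WT untreated (0.03 to 0.28, adjusted p = 0.0529; 0.0414 in DESeq2).

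Hadhb had 58.2, 66.2, 54.2 and 60.8 CPM in KO acetate libraries, against 72.2, 83.8, 77.0 and 70.6 CPM in KO untreated libraries. In WT cells it had 62.9, 63.0, 61.8 and 64.4 CPM with acetate, against 70.9, 66.3, 65.7 and 67.1 CPM untreated. Acetate libraries were the lower ones in both genotypes without overlap. In KO cells Hadhb fell 1.27-fold with acetate (log2 fold change −0.34, SE 0.0652, adjusted p in edgeR = 0.000308), and in WT cells its change of −0.10 was not called (95% interval −0.24 to 0.04, adjusted p = 0.348). In untreated cells it was 1.12-fold higher in KO than in WT (0.17, SE 0.0649, adjusted p = 0.0481), with overlapping libraries.

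This last call of Hadhb was lost without KO untreated 2 or 3 or WT untreated 2, 3 or 4 (adjusted p up to 0.173), with library totals as the only scaling (0.244), without the filter on low counts (0.0516) and without the high-share libraries (0.154). That scaling moved the all-gene median with acetate in KO cells by 0.10 on the log2 scale. Hadha then had −0.15 (adjusted p = 0.126), and relative to the median of all genes Hadha and Hadhb stood at −0.25 and −0.34, against −0.24 and −0.33 with TMM.

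Hadha (chr5:30119423-30154980, minus strand) and Hadhb (chr5:30155253-30184593, plus strand) are transcribed away from each other, with 272 bases between their RefSeq starts. Part of this shared stretch is given because both genes fell with acetate in KO cells. The bases at chr5:30155163-30155247 (RefSeq, GRCm38.p6, plus strand) lie outside the exons of both genes in GENCODE M21, and capitals mark GGGCGG, the letters of the Sp1 box.
Hadha-Hadhb: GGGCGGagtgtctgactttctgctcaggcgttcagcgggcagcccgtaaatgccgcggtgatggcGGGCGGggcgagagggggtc
GGGCGG stood on either strand before 6 of the 9 genes and in 32.7% of all windows. The count of Hadha over that of Hadhb averaged 2.21 ± 0.194 in KO acetate, 2.07 ± 0.106 in KO untreated, 2.02 ± 0.139 in WT acetate and 2.09 ± 0.106 in WT untreated libraries (SD, n = 4 each). Neither their promoters nor those of the other 7 genes held TGATGCAA, the letters of ATF4 and C/EBP, which stood in 0.791% of windows.

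Etfdh encodes the oxidoreductase that hands electrons of all acyl-CoA dehydrogenases to ubiquinone (chr3:79603788-79628767, minus strand). Its levels were 60.5, 64.0, 63.7 and 58.7 CPM in KO acetate libraries, against 51.3, 53.1, 51.8 and 47.0 CPM in KO untreated libraries. In WT cells they were 68.4, 71.7, 61.0 and 66.0 CPM with acetate, against 56.8, 60.0, 58.7 and 64.2 CPM untreated. KO untreated libraries were below all other libraries. Etfdh was 1.18-fold lower in KO untreated than in WT untreated cells (log2 fold change −0.24, SE 0.0618, adjusted p in edgeR = 0.00567) and rose 1.22-fold with acetate in KO cells (0.28, SE 0.0619, adjusted p = 0.00116). The change with acetate in WT cells was 0.16 (95% interval 0.03 to 0.28, adjusted p = 0.0971), and the effects in the genotypes differed by 0.12 (−0.06 to 0.31, adjusted p = 0.39).

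Counted together, 5 of the 9 genes were called between KO and WT untreated cells, 1 higher and 4 lower, where 36.6% of all genes tested were called, 18.0% higher and 18.6% lower. Their median log2 fold change was −0.20, against 0.01 over all genes. Without the high-share libraries 3 were called, all lower, and without any of KO untreated 2, KO untreated 3 or WT untreated 3 also 3. DESeq2 called 7, and 7 had an unadjusted p under 0.05 in edgeR, for which the shares of all genes are not given here. Groups did not overlap for 3 of the 9, all lower in KO (Cpt1a, Acadm and Etfdh), against 18.2% of all genes in that direction. With acetate in KO cells 7 were called, 5 higher and 2 lower, where 43.7% of all genes were called, 22.1% higher and 21.6% lower. The median was 0.28, against −0.01 over all genes, and libraries did not overlap for 4 genes that were higher and 2 that were lower, against 19.0% and 18.7% of all genes. With acetate in WT cells 3 were called, all higher, where 15.4% of all genes were called and 7.89% were called higher. The medians were 0.09 for the 9 genes and 0.00 over all, and 2 genes (Cpt1a and Acadvl) were higher and 1 (Hadhb) was lower without overlap, against 10.6% and 10.7% of all genes. The libraries do not tell apart fewer cells with a transcript and less of it per cell.

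Between KO acetate and WT acetate, edgeR called 0 of the 9 genes at an adjusted p under 0.05, where 1.0% of all genes were called (150 genes, 21 to 661 with 1 library left out and 788 in DESeq2), and 1, Cpt1a, at an unadjusted p under 0.05, the gene DESeq2 also called. The median of the 9 was −0.07, against 0.01 over all genes. The libraries of Cpt1a and of Slc25a20 did not overlap, both lower in KO, as for 4.86% of all genes. Between KO acetate and WT untreated cells, 2 of the 9 were called, where 26.4% of all genes were called and 12.9% called higher: Acadvl (0.25, SE 0.0590, edgeR adjusted p = 0.00446) and Acadm (0.24, SE 0.0689, adjusted p = 0.0154). Both were higher in KO acetate without overlap, as for 14.2% of all genes. The call of Acadm was lost without WT untreated 1 (adjusted p = 0.0683) and without the high-share libraries (0.17, adjusted p = 0.12). Hadhb had −0.17 there (adjusted p = 0.0557) and passed in DESeq2 (0.0346), without the filter on low counts (0.0491), without KO acetate 2 (0.0165) and without the high-share libraries (0.031). For the difference between the acetate effects 1 of 9 was called, Acadm, where 11.9% of all genes were called and 6.37% with a positive difference. Without KO acetate 2 a further gene, Hadhb, was called (−0.30, adjusted p = 0.0374). The comparisons share libraries, so their counts are not independent of each other.

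Within a library, the count of Acadm over that of Hadha does not depend on scaling. It was 0.355, 0.343, 0.376 and 0.373 in KO acetate libraries, against 0.205, 0.173, 0.188 and 0.191 in KO untreated libraries. In WT cells it was 0.352, 0.366, 0.338 and 0.413 with acetate, against 0.250, 0.288, 0.276 and 0.330 untreated. KO untreated libraries were lowest, and acetate libraries of both genotypes were above all untreated ones. This pair of genes was picked after its values were seen, so the ratios are a description.

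**Figure D3:**
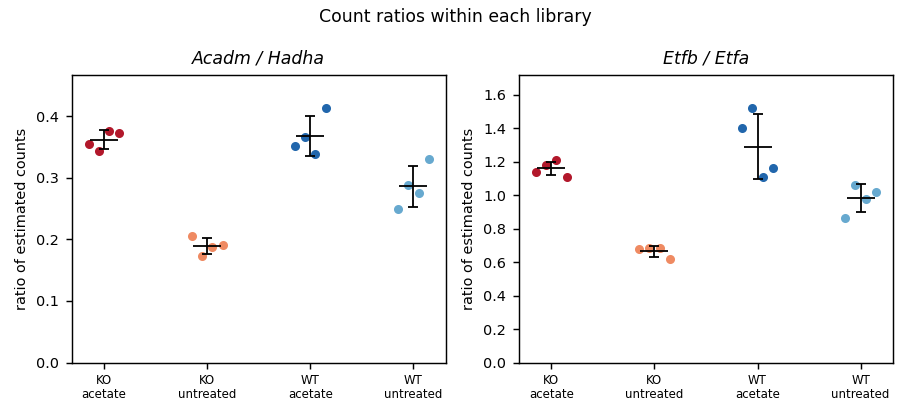
Ratio of the estimated counts of Acadm to Hadha (left) and of Etfb to Etfa (right) in every library (points) of the 4 groups, with mean (bar) and SD (whiskers), on axes from 0. KO untreated libraries have the lowest ratios in both panels, 0.173 to 0.205 and 0.617 to 0.685.

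The other enzymes of mitochondrial beta-oxidation were read as a list of 16 genes. In KO against WT untreated cells 2 were higher and 4 lower, and with acetate 4 rose and 3 fell in KO cells and 2 rose and none fell in WT cells. Over all genes tested 36.6% were called in the first of these comparisons, 43.7% with acetate in KO cells and 15.4% with acetate in WT cells. The counts of this list lay near those shares, and the counts of all further lists stand beside the same shares. Acads, the short-chain dehydrogenase next in the family to Acadm, was at 37.0 ± 5.58 CPM in KO acetate, 20.1 ± 2.45 in KO untreated, 40.0 ± 6.29 in WT acetate and 30.1 ± 1.36 CPM in WT untreated libraries (SD, n = 4 each). In untreated cells KO over WT gave a log2 fold change of −0.58 (edgeR adjusted p = 0.000831) and with acetate Acads rose 1.84-fold in KO cells (9.05e-06). Acaa2, the thiolase of the medium-chain rounds, was 1.27-fold lower in KO untreated than in WT untreated cells (0.00191) and rose 1.24-fold with acetate in KO cells (0.00314, and 0.0568 without the high-share libraries). Hadh, the short-chain hydroxyacyl-CoA dehydrogenase, fell 1.22-fold with acetate in KO cells (0.00227, and 0.0894 with library totals as the only scaling), like Hadha and Hadhb.

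Etfa and Etfb encode the subunits of the flavoprotein that passes electrons to ETFDH, and their transcripts moved in opposite directions between KO and WT untreated cells and with acetate in KO cells. Etfa averaged 74.1 ± 1.86 CPM in KO acetate, 89.5 ± 4.72 in KO untreated, 73.6 ± 1.22 in WT acetate and 74.7 ± 1.91 CPM in WT untreated libraries. Etfb averaged 85.9 ± 2.46, 59.6 ± 4.98, 95.4 ± 15.2 and 73.3 ± 6.77 CPM in the same 4 groups (SD, n = 4 each). Between KO and WT untreated cells Etfa was 1.20-fold higher (edgeR adjusted p = 0.000481) and Etfb 1.23-fold lower (0.0187, with an adjusted p of 0.0548 to 0.0558 without KO untreated 4, WT untreated 2 or WT untreated 4). With acetate in KO cells Etfa fell 1.21-fold (0.000206, and 0.0659 with library totals as the only scaling) and Etfb rose 1.44-fold (0.00018). With acetate in WT cells Etfb rose 1.30-fold (0.0102, and 0.0589 without the high-share libraries), and Etfa had a log2 fold change of −0.02 (0.841). The count of Etfb over that of Etfa, also picked after its values were seen, averaged 1.16 ± 0.0411 in KO acetate, 0.666 ± 0.0327 in KO untreated, 1.29 ± 0.195 in WT acetate and 0.982 ± 0.0841 in WT untreated libraries.

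The list of carnitine and fatty acid supply had 17 of 21 genes in the table. With acetate 4 rose and 9 fell in KO cells and none rose and 6 fell in WT cells, where 43.7% and 15.4% of all genes were called. Between KO and WT untreated cells 3 were higher and 4 lower, where 36.6% of all genes were called. The brain-type relative of Cpt1a, Cpt1c, was at 0.834 ± 0.111 CPM in KO acetate, 4.72 ± 0.568 in KO untreated, 0.635 ± 0.211 in WT acetate and 2.43 ± 0.809 CPM in WT untreated libraries. It fell 5.64-fold with acetate in KO cells (edgeR adjusted p = 5.4e-07) and 3.79-fold in WT cells (0.000111), where Cpt1a rose. Fabp5, a fatty acid binding protein of T cells, fell 1.80-fold with acetate in KO cells (1.75e-08) and 1.55-fold in WT cells (6.73e-06). Acsl5, which binds fatty acids to CoA, fell 1.38-fold (6.11e-07) and 1.30-fold (7.16e-05) in the same comparisons.

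Acsl6, another acyl-CoA synthetase, was at 6.97 ± 1.1 CPM in KO acetate, 1.49 ± 0.355 in KO untreated, 4.51 ± 2.37 in WT acetate and 4.16 ± 0.968 CPM in WT untreated libraries. It was 2.79-fold lower in KO than in WT untreated cells (edgeR adjusted p = 0.00135) and rose 4.68-fold with acetate in KO cells (1.99e-05). Acss1 encodes the mitochondrial enzyme that makes acetyl-CoA from acetate. It was at 8.59 ± 1.22 CPM in KO acetate, 3.74 ± 1.11 in KO untreated, 8.72 ± 1.31 in WT acetate and 6.26 ± 0.457 CPM in WT untreated libraries (SD, n = 4 each). Acss1 rose 2.29-fold with acetate in KO cells (3.18e-05) and was 1.67-fold lower in KO than in WT untreated cells (0.0038, and 0.0586 without the high-share libraries).

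Of 9 genes that set the malonyl-CoA brake on CPT1, 2 were higher and 1 lower in KO than in WT untreated cells, and 2 rose and 2 fell with acetate in KO cells, against 36.6% and 43.7% of all genes. Acaca, the carboxylase that makes malonyl-CoA, averaged 190 ± 23.1 CPM in KO acetate, 245 ± 10.9 in KO untreated, 147 ± 10.3 in WT acetate and 174 ± 4.75 CPM in WT untreated libraries. It was 1.41-fold higher in KO than in WT untreated cells (edgeR adjusted p = 4.9e-05) and fell 1.29-fold with acetate in KO cells (0.000533). Under acetate it was 1.30-fold higher in KO than in WT (0.0239), a call lost without KO acetate 1 or 3 or WT acetate 2 or 3, with library totals as the only scaling (0.0511) and in a fit of those groups alone (0.111). Mlycd, the decarboxylase that removes malonyl-CoA, was 1.45-fold higher in KO than in WT untreated cells (0.00342) and fell 1.54-fold with acetate in KO cells (0.000774), the same directions as Acaca. The 2 that rose with acetate in KO cells were Prkaa2 (2.44-fold, edgeR adjusted p = 0.000504) and Acacb (1.94-fold, 0.00965). They averaged 2.90 and 1.315 CPM in KO acetate libraries, against 1.19 and 0.676 CPM in KO untreated libraries.

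**Figure D4:**
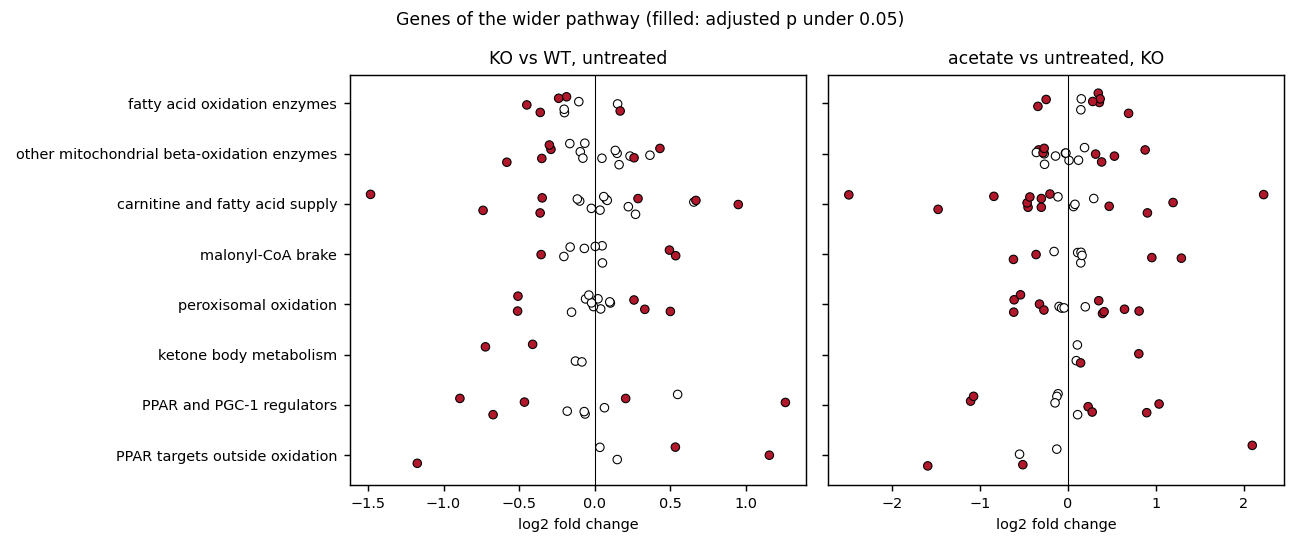
Log2 fold change (horizontal axes) of each tested gene of the 9 fatty acid oxidation enzymes and of 7 wider lists (rows), for KO over WT untreated and for acetate over untreated in KO cells. Filled points had an edgeR adjusted p under 0.05, and every list with 9 or more genes holds filled points on both sides of 0 in both panels.

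Peroxisomes shorten very-long-chain fatty acids by a parallel set of enzymes. Of the 14 of these genes tested, 3 were higher and 2 lower in KO than in WT untreated cells, and 5 rose and 5 fell with acetate in KO cells, against 36.6% and 43.7% of all genes. Hsd17b4, the peroxisomal bifunctional enzyme, was 1.42-fold lower in KO than in WT untreated cells (edgeR adjusted p = 7.73e-06) and rose 1.33-fold with acetate in KO cells (3.64e-05), while its change in WT cells was −0.12 (adjusted p = 0.229). Acox3, an acyl-CoA oxidase, fell 1.53-fold with acetate in KO cells (1.07e-05) and 1.48-fold in WT cells (0.000197). The transporter Abcd3 rose 1.56-fold (0.00022) and 1.41-fold (0.00778; 0.0516 without the high-share libraries) in the same comparisons.

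Of the 4 genes of ketone body use and synthesis in the table, 2 were lower in KO than in WT untreated cells, where 18.6% of all genes were called lower. Bdh1, which oxidises beta-hydroxybutyrate, averaged 74.8 ± 5.82 CPM in KO acetate, 42.8 ± 2.03 in KO untreated, 78.0 ± 4.01 in WT acetate and 70.6 ± 2.11 CPM in WT untreated libraries. It was 1.65-fold lower in KO than in WT untreated cells (edgeR adjusted p = 1.65e-07) and rose 1.75-fold with acetate in KO cells (1.4e-08). Oxct1, which activates acetoacetate, was 1.33-fold lower in KO than in WT untreated cells (7.73e-06). With acetate Oxct1 fell in WT cells (log2 fold change −0.19, edgeR adjusted p = 0.0168) and rose in KO cells (0.14, adjusted p = 0.0288). The call in KO cells was lost without any of several single libraries, and that in WT cells without WT untreated 4. In KO acetate Oxct1 stayed below WT untreated cells (−0.27, adjusted p = 0.000903).

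The regulators of the pathway were read as 10 tested genes of the PPAR and PGC-1 circuit. Between KO and WT untreated cells 2 were higher and 3 lower, and with acetate in KO cells 4 rose and 2 fell, against 36.6% and 43.7% of all genes. Esrra, the oestrogen-related receptor alpha whose motif stands before Acadm, was at 23.5, 24.6, 24.1 and 27.7 CPM in KO acetate libraries, against 12.0, 13.6, 10.1 and 13.0 CPM in KO untreated libraries. In WT cells it was at 21.4, 26.0, 28.0 and 24.3 CPM with acetate, against 19.6, 19.1, 18.2 and 20.7 CPM untreated. As for Acadm, KO untreated libraries of Esrra were below every other library. Nrf1 encodes the factor whose core stands before Acadm and Etfdh, and its highest group mean was in KO untreated cells. It averaged 54.9 CPM in KO acetate, 60.0 in KO untreated, 54.2 in WT acetate and 57.3 CPM in WT untreated libraries. A part of Esrra or Nrf1 in the levels of Acadm and Etfdh was not tested. Esrra was 1.59-fold lower in KO than in WT untreated cells (log2 fold change −0.67, SE 0.0976, adjusted p in edgeR = 4.01e-05) and rose 2.05-fold with acetate in KO cells (1.04, SE 0.0976, adjusted p = 1.45e-07). In WT cells it rose 1.28-fold (0.0142), a call lost without WT untreated 3.

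Ppargc1b, the coactivator PGC-1 beta, was 1.85-fold lower in KO than in WT untreated cells (edgeR adjusted p = 0.00023) and rose 1.86-fold with acetate in KO cells (0.000136). Its change of 0.07 in WT cells was not called (adjusted p = 0.826). Ppard, the PPAR of most tissues, was 1.38-fold lower in KO than in WT untreated cells (3.71e-05) and rose 1.17-fold with acetate in KO cells (0.00992). This rise was not called without KO acetate 2 (0.0525) or without the high-share libraries (0.12 on the log2 scale, 0.245). Rxra, of the same list, fell with acetate in KO cells (log2 fold change −1.08, edgeR adjusted p = 0.00467). It averaged 113 ± 25.9 CPM in KO untreated and 53.55 ± 8.59 CPM in KO acetate libraries. In WT libraries Rxra averaged 77.1 CPM untreated and 58.3 CPM with acetate. Pparg averaged 2.79 CPM in KO untreated and 1.16 CPM in WT untreated libraries.

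Of 5 tested genes that PPARs are known to induce outside oxidation, 2 were higher and 1 lower in KO than in WT untreated cells, where 36.6% of all genes were called. With acetate in KO cells 1 rose and 2 fell, where 43.7% of all genes were called. Plin2, which coats lipid droplets, averaged 25.3 ± 3.30 CPM in KO acetate, 5.89 ± 1.64 in KO untreated, 23.8 ± 3.77 in WT acetate and 13.3 ± 0.674 CPM in WT untreated libraries. It was 2.26-fold lower in KO than in WT untreated cells (edgeR adjusted p = 2.53e-05) and rose 4.28-fold with acetate in KO cells (2.05e-08) and 1.78-fold in WT cells (0.00112). Acot2, a mitochondrial acyl-CoA thioesterase, was 2.23-fold higher in KO than in WT untreated cells (2.72e-06) and fell 3.02-fold with acetate in KO cells (3.33e-08). Its counts are uncertain, since reads can be divided with the near-identical Acot1. Angptl4, a secreted lipase inhibitor, was 1.45-fold higher in KO than in WT untreated cells (0.000163), and its change of −0.13 with acetate in KO cells was not called (adjusted p = 0.261). Ucp2, of the same list, fell with acetate in KO cells (log2 fold change −0.51, edgeR adjusted p = 0.000139). It averaged 568 ± 71.1 CPM in KO untreated and 397.5 ± 42.7 CPM in KO acetate libraries.

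**Figure D5:**
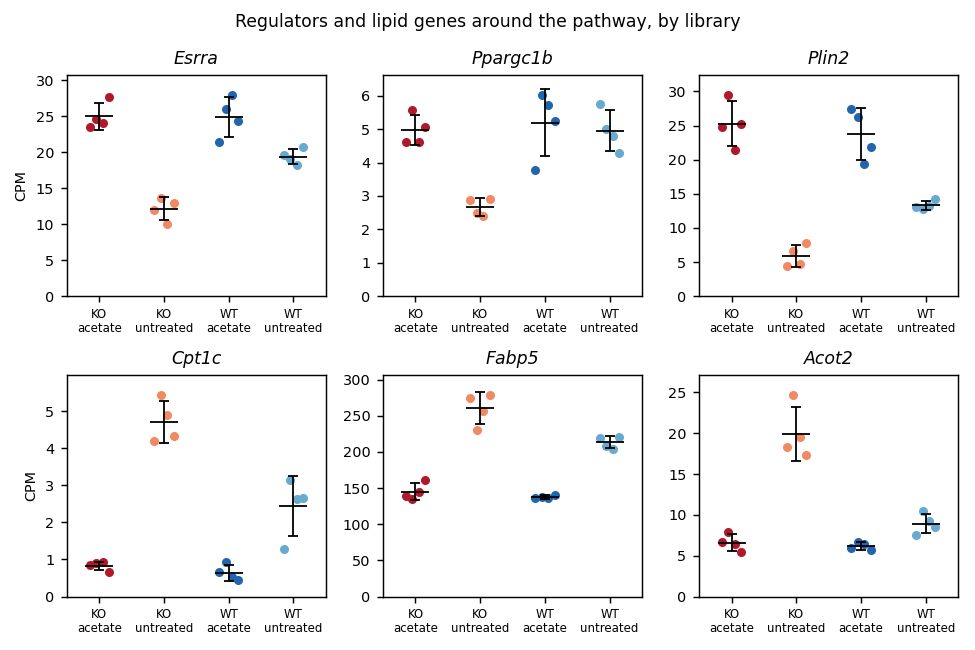
Level in CPM (vertical axes, from 0) of 3 genes that are lowest and 3 that are highest in KO untreated cells, in every library (points) with group mean (bar) and SD (whiskers). Esrra, Ppargc1b and Plin2 share the low KO untreated group of Acadm, and for Cpt1c and Fabp5 both acetate groups lie below both untreated groups.

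Across the 16 libraries, the genes whose pattern was closest to that of Cpt1a, by root-mean-square difference of log2 CPM after each gene was scaled to SD 1, were Gimap7, a GTPase of lymphocytes (0.387), Hs3st3b1, a heparan sulfate sulfotransferase (0.413), and Hacd3, a dehydratase of fatty acid elongation (0.417), among 9455 genes compared. For Hadha they were Vps72, a chromatin remodelling subunit (0.246), Pold1, the catalytic subunit of DNA polymerase delta (0.333), and the cytokine receptor gene Il21r (0.337). Hadhb, which shares the promoter region of Hadha, came at rank 628 (0.671).

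The cells had been sorted as naive CD4+ cells, a sort meant to remove CD8 T and NK cells. The CD8 genes Cd8a and Cd8b1 were nonetheless lower in KO than in WT untreated cells and rose with acetate in KO cells, as did Acadm, and the other markers of that list did not follow. The 5 of 7 CD8 and NK markers in the table summed to 23.2 to 26.4 CPM in KO acetate, 14.8 to 17.7 in KO untreated, 23.9 to 26.4 in WT acetate and 17.6 to 20.1 CPM in WT untreated libraries, and none of the 5 was at 0 in any library. Cd8b1 averaged 12.9 ± 1.98, 6.20 ± 1.23, 13.0 ± 2.41 and 9.09 ± 0.655 CPM and Cd8a 1.98 ± 0.387, 0.540 ± 0.159, 1.81 ± 0.631 and 1.09 ± 0.450 CPM in the same order of groups (SD, n = 4 each). Of the remaining 3, Klrk1 was higher in KO than in WT untreated cells (log2 fold change 0.53, edgeR adjusted p = 0.0437) and had −0.02 with acetate in KO cells (0.938), and Klrd1 and Eomes were not called in either comparison. The part of such cells, or of Cd8 transcripts in the cultured cells, in the levels of the 9 genes was not tested. The 9 T cell and Th17 markers summed to 2480 to 3700 CPM in KO acetate, 1410 to 1670 in KO untreated, 2160 to 3040 in WT acetate and 1700 to 2120 CPM in WT untreated libraries. Il17f and Il17a made up much of the acetate sums, and Il17f averaged 1117 CPM in KO acetate and 952 CPM in WT acetate libraries. The 9 did not move as a group. With acetate in KO cells 5 rose and 1, Cd3e, fell (adjusted p = 0.000185 in edgeR). Between KO and WT untreated cells 1 of the 9 markers, Ccr6, was higher (6.55e-05) and 3 were lower. Their part in the levels of the oxidation genes was not tested.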

How the data were processed

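RNA of 16 samples (4 groups of 4) was extracted with a NucleoSpin kit and sequenced from TruSeq Stranded mRNA libraries, per the labels' protocols. The authors deposited 1 table of estimated counts per Ensembl gene, as whole numbers. Salmon, DESeq2 and DESeq are listed in the submitters' processing notes. Versions, genome build, annotation and rounding: not given in the sources used here. All 15571 genes had at least 10 counts in at least 3 libraries, and 15221 identifiers matched a symbol. No column was left unmapped. Library totals were 24571177 to 33723470, and replicates within groups differed beyond sampling noise (chi-square per degree of freedom 6.07 to 208).

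Counts were tested with edgeR 4.0.16 (limma 3.58.1, R 4.3.3) using TMM scaling, filterByExpr and the robust quasi-likelihood F test. A single fit held all libraries and had no replicate term, and p-values were adjusted by the Benjamini-Hochberg method over 14985 genes (common biological coefficient of variation 0.144). The procedure was checked on simulated data. The SE is the log2 fold change over the root of F, and intervals are at 95%. Alternatives were DESeq2 1.42.0, library totals only, no filter, a replicate block, only the groups compared, each library left out, and the 4 high-share libraries left out. Per length, levels used GENCODE M21 transcripts. Sequences and positions are RefSeq's for GRCm38.p6, which matched all 9 genes. The counts' own build was not compared with it.

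The 9 genes and all lists were chosen with earlier results of these data known. Named besides the 9 were, of each wider list and comparison, up to 3 called genes with the smallest adjusted p, with their values in the other comparisons. For Cpt1a and Hadha the 3 genes of most similar pattern were named, among those averaging 5 CPM or more. Only part of these are printed. Some list members are not analysed here, and some marker genes are not reported here.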

Additional observations from a re-analysis of the deposited data

Results flagged for a closer look

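In groups of 4, a library was set apart where its gap to the nearest other was large for the group's range by Dixon's test at 95%, which chance gives in about 1 of 20 groups. Of 152 groups examined 8 were. KO acetate 4 stood apart for Cpt1a (30.6 CPM), Slc25a20 (21.5 CPM), Angptl4 (12.4 CPM) and Gimap7 (10.3 CPM). WT untreated 1 stood apart for Acadl (92.1 CPM) and Acsl5 (274 CPM), WT untreated 4 for Etfa (77.5 CPM) and KO untreated 1 for Vps72 (37.4 CPM).

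The acetate effect in KO cells differed from that in WT cells, by the interaction term of the edgeR fit, for these genes among those named above. For Acadm the difference was 0.48 on the log2 scale (adjusted p = 0.00423). It was also positive for Hsd17b4 (0.53), Bdh1 (0.66), Oxct1 (0.33), Esrra (0.67), Ppargc1b (0.83), Plin2 (1.26) and Acsl6 (2.11), and negative for Acot2 (−1.07), Mlycd (−0.60), Hadh (−0.34) and Etfa (−0.25), with edgeR adjusted p-values between 0.000104 and 0.0415. In the wider lists Acsl4 (0.68), Stk11 (0.35) and Pecr (0.68) were also called, with adjusted p-values of 0.0196, 0.0326 and 0.0395. Without the high-share libraries, Etfa, Hadh, Acsl6, Mlycd and Ppargc1b lost this call (adjusted p = 0.0569 to 0.179). Etfa, Hadh and Mlycd also lost it with library totals as the only scaling and without KO acetate 3, among other libraries. Stk11 and Pecr lost it without any of several single libraries (edgeR adjusted p up to 0.0742 and 0.0869). Pdhx, of the PDH complex, was called too (0.34, edgeR adjusted p = 0.0443).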

How the results depend on the processing

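Of 315 alternative values of the 9 genes other than single libraries left out, 282 kept their direction and their side of the threshold, 11 lost a call, 13 gained a call and 9 changed sign. For the 504 values with 1 library left out, 462 kept both. The counts of genes called among the 9 lay between 3 and 5 (KO against WT untreated), 0 and 1 (KO against WT with acetate), 6 and 7 (acetate in KO), 2 and 4 (acetate in WT), 1 and 3 (KO acetate against WT untreated) and 1 and 2 (difference of acetate effects) with 1 library left out. Over all genes they lay between 4491 and 5454, 21 and 661, 5817 and 6460, 1569 and 2370, 2944 and 3896, and 1277 and 1999 in the same order. Without the high-share libraries 3 of the 9 and 3361 of all genes were called between KO and WT untreated cells, 535 of all genes between KO and WT with acetate, and 1010 for the difference of acetate effects, where 1785 were called in the reported fit. Between KO and WT with acetate, where 150 genes were called, 78 were called with library totals only, 16 in a fit of those groups alone and 788 by DESeq2, which called 1 of the 9. That count was 661 without KO acetate 2, 371 without KO acetate 4, 59 without WT acetate 2, 42 without WT acetate 4, 24 without KO acetate 3, 22 without KO acetate 1 and 21 without WT acetate 3. Of 556 alternative values of the wider lists' genes, 36 lost a call.

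By the rule that all 4 correlations of a comparison exceed 0.1, replicate numbers were not taken to pair the libraries. Same-numbered libraries correlated between −0.076 and 0.203 in 24 pairs of libraries, 9 of them over 0.1, and no comparison had all 4 over 0.1, although in KO acetate against KO untreated all 4 correlated best with their own number (0.083 to 0.149). With a replicate block, 408 genes were called between KO and WT with acetate, and 2 of the 9 for the difference of acetate effects, the second being Acadl (0.40, adjusted p = 0.0448).

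Signs changed only for values that were near 0 and not called in the reported fit. Acadl went to −0.0445 for KO over WT with acetate and −0.158 for KO acetate over WT untreated without the high-share libraries, where Etfdh had −0.0127. For KO acetate over WT untreated, Acadl was −0.0026 without the filter, −0.0019 with the block, −0.0034 in a fit of those groups alone and −0.0013 in DESeq2. With library totals only, Acadl with acetate in WT cells was 0.010, and Slc25a20 for KO acetate over WT untreated 0.0056. With 1 library left out, KO over WT with acetate ranged from −0.0485 to 0.1099 for Acadl and −0.0199 to 0.0606 for Acadm. Acetate in WT cells ranged from −0.0013 to 0.1649 for Cpt2, −0.0022 to 0.0904 for Slc25a20 and −0.1061 to 0.0418 for Acadl. KO acetate over WT untreated ranged from −0.0909 to 0.0019 for Slc25a20 and −0.0831 to 0.0609 for Acadl. The difference of acetate effects ranged from −0.123 to 0.004 for Cpt1a, −0.0186 to 0.1526 for Cpt2 and −0.0066 to 0.0694 for Acadvl. The cause of these changes was not tested.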
